A study of Rattus norvegicus with 28 samples.

Results

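The genes described here encode enzymes of fatty acid and myelin lipid synthesis and one of their regulators. They were picked by gene name: Fasn, Acaca, Scd1, Elovl6, Fads1, Fads2, Srebf1, Ugt8 and Gal3st1. Of these 9 genes, 8 were found by gene name among the 35469 features of the array, on 11 probes, and Gal3st1 was not. The microarray data comprised 28 arrays from spinal cord of adult female Sprague Dawley rats, 4 in each of 7 groups. T0 animals were not contused; the labels call them sham and the study's methods call them uninjured. The groups T1, T2, T4 and T8 were taken 1, 2, 4 and 8 weeks after a severe contusion (250 kdyn) at thoracic vertebra 8. T1_NPC animals received neural progenitor cells (NPCs) right after the contusion and were taken at week 1, and T2_NPC animals received them 1 week after it and were taken at week 2. The NPCs were cultured from the cords of other adult rats with a spinal cord injury, and the protocol gives tacrolimus (FK-506, an immunosuppressant) at 1 mg/kg from the day before transplantation. Each sample was 1.5 cm of whole cord with the injury site, so every cell type of the cord and of the lesion contributed RNA. In such bulk tissue, fewer cells of a type and less RNA per cell cannot be told apart.

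Fatty acids are built from acetyl-CoA. Acetyl-CoA carboxylase, encoded by Acaca, makes malonyl-CoA, and fatty acid synthase, encoded by Fasn, joins these units into palmitate. Elovl6 lengthens palmitate to stearate, Scd1 sets the first double bond in saturated chains, and Fads1 and Fads2 desaturate polyunsaturated chains. Srebf1 encodes the transcription factor SREBP-1, which drives most of these genes. Ugt8 makes galactosylceramide, the abundant glycolipid of myelin, and Gal3st1 turns it into sulfatide. In the adult cord this lipid output belongs in large part to oligodendrocytes, the cells that make central myelin, while astrocytes also supply lipids.

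Promoter sequence was taken from RefSeq (GRCr8) for the members with an entry, to show what these genes have in common upstream. Entries were found for 6 of the 9 genes; Fasn, Acaca and Elovl6 had none. The 250 bases before each annotated start were searched on both strands for 4 motifs, each counted on its own, so that matches of different motifs could share bases. The sterol regulatory element core TCACNCCAC, a sequence bound by SREBP proteins, was found in none of the 6 genes and in 0.974% of all 33469 promoters of that length. A CCAAT box (CCAAT) was found in Srebf1, Fads1 and Gal3st1 and in 34% of all promoters. A GC box (GGGCGG) was found in Srebf1, Fads1, Fads2, Ugt8 and Gal3st1 and in 30.5% of all promoters. The E-box CACGTG was found in none of the 6 genes and in 5.59% of all promoters. The Scd1 window held no match to any motif. These counts describe letters in a short window. The stretches below lie upstream of every annotated transcript of Ugt8 (chr2:217007168-217007417, minus strand), Srebf1 (chr10:45529165-45529414, minus strand) and Fads1 (chr1:216252442-216252604, plus strand). Ugt8 is shown as a gene that stayed low after injury, and Srebf1 and Fads1 as genes that did not. Capitals mark the matches, which read ATTGG or CCGCCC where the motif lies on the other strand.
Ugt8: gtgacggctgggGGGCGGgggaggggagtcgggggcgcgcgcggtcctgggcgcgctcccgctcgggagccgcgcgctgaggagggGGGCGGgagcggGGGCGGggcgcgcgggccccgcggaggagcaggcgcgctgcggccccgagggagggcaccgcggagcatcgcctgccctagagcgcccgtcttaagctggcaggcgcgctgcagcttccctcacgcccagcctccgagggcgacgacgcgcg
Srebf1: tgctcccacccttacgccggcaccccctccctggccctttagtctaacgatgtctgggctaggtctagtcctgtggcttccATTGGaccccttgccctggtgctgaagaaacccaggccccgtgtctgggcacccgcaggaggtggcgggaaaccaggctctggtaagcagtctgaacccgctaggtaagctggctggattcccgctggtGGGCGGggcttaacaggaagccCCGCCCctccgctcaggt
Fads1: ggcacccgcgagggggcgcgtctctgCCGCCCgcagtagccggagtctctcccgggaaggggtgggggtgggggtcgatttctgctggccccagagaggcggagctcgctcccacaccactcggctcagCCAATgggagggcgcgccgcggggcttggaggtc
Srebf1 had a second annotated start, whose window lies inside the gene and held 2 CCAAT boxes and 2 GC boxes. A stretch of 30 bases from it (chr10:45519125-45519154, minus strand) shows 1 of these CCAAT boxes in capitals. A GC box in the same stretch is left in lower case.
Srebf1, internal start: tgggcggggccttATTGGggcgcggcgcgg

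All levels are the normalized log2 intensities of the deposited value table, with probes of a gene averaged, and a difference of 1 is a 2-fold change. The share of probes well above background ran from 73.7% to 82.1% over the arrays. All 11 probes of the 8 genes were well above background on all 28 arrays, except the Srebf1 probe, which was so on 24. It was not well above background on 1 T1, 2 T2 and 1 T1_NPC array. No spot of these genes was saturated. For 16 of the 28 arrays, the deposited scanner output followed the rank order of another sample's column in the value table. The sample behind these arrays is thus in doubt. They include all T1_NPC arrays, most T1 and T4 arrays, some T0, T2 and T8 arrays and no T2_NPC array. The T1_NPC levels therefore rest on disputed arrays alone. The value table was followed here, and the scanner outputs were matched to it by rank order to learn the slide and scan session of each array. The 20 time-course arrays lay on 5 slides in scan sessions 1 and 2, and both sessions held arrays of all 5 time-course groups. Session 1 held only 1 T1 array and 1 T4 array, so its T1 and T4 values rest on 1 array each. All 8 arrays of transplanted animals lay on 2 slides of their own in scan session 3, so transplantation, slide and scan session cannot be told apart. The protocol times tacrolimus by the transplantation. Where untransplanted animals did not receive it, the drug cannot be told apart from transplantation either. The study's methods state that injured control animals were given an equal volume of medium without cells, and do not name the groups. Nothing in the labels ties equal replicate numbers to a shared litter or day.

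After injury the set moved down, with some genes called lower at every time and others only early. Fasn, Elovl6, Scd1 and Ugt8 were lower than T0 at all 4 times, Fads2 and Srebf1 at weeks 1 and 2, and Acaca at week 1 only. No member was called higher than T0 at any time, except Srebf1 at week 8 when slide was a fixed block (0.37, adjusted p = 0.0356). At week 1, 7 of 8 genes fell, where 25.1% of all 35469 features were called lower. At week 2, 6 of 8 fell, against 22.2% of all features. At week 4, 4 of 8 fell, against 21.0%, and at week 8 the same 4 genes fell, against 21.5%. The 4 genes low at all times compare with 15.9% of all features called lower at all 4 times. The median difference from T0 over the 8 genes was -1.07 at week 1, -0.86 at week 2, -0.64 at week 4 and -0.69 at week 8 on the log2 scale, and that over all features was -0.10, -0.05, -0.06 and -0.04. These 4 comparisons share their T0 arrays.

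**Figure D1:**
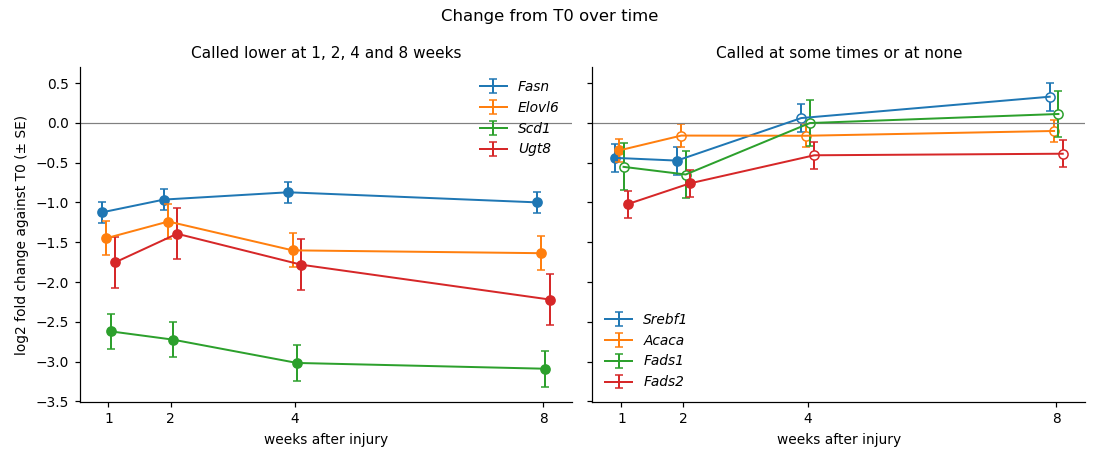
Difference from T0 (log2 fold change, vertical axis, bars are the standard error) against weeks after injury for the 8 genes, with filled points at an adjusted p under 0.05 and open points otherwise. Scd1 lies lowest, between -2.62 and -3.09. At week 4 Srebf1, Fads1 and Fads2 lie nearer 0 than at week 2, and at week 8 Srebf1 and Fads1 lie above it, at 0.33 and 0.11.

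Srebf1, the regulator, had the dimmest probe of the set. Its level was 4.45, 4.60, 4.67 and 4.22 in the T0 replicates. It was 4.34, 3.75, 3.60 and 4.49 at T1 and 3.45, 4.08, 4.38 and 4.13 at T2. Both injured groups overlapped T0 and had a wide spread, with some arrays below every T0 value. At T4 it was 4.65, 4.51, 4.48 and 4.54, and at T8 it was 4.77, 4.94, 4.67 and 4.88, so that every T8 array lay above every T0 array. The difference from T0 was -0.44 ± 0.18 (SE) at T1 (adjusted p = 0.047) and -0.47 ± 0.18 at T2 (adjusted p = 0.0354), and both passed the test. At week 4 it was 0.06 ± 0.18 (adjusted p = 0.834) and 0.33 ± 0.18 at T8 (adjusted p = 0.15). The T1 call was lost in 21 of the 28 fits that each left out 1 array and the T2 call in 4 of them, and without T1 replicate 3 or T2 replicate 1 the differences were -0.29 and -0.29 (adjusted p = 0.201 and 0.19). Both calls were also lost with only the groups compared (adjusted p = 0.156 and 0.122) and with the time-course arrays alone (adjusted p = 0.082 and 0.0659). They were lost with limma's trended and robust variance estimate (adjusted p = 0.0769 and 0.0606) and within each scan session, where session 1 held 1 T1 array. With another background correction (normexp on the scanner intensities) the differences were -0.09 and -0.05 (adjusted p = 0.224 and 0.573), and with scan session as a block the T1 difference was -0.38 (adjusted p = 0.0605).

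Acaca, which makes the malonyl-CoA building block, was measured by 2 probes that disagreed. The probe A_44_P514379 (chr10:72678945-72679004, rn4) read 14.65, 14.84, 14.78 and 14.75 at T0. At T1 it read 14.25, 13.96, 14.16 and 14.23, and at T8 it read 14.29, 14.40, 14.39 and 14.33. All arrays of T1, T2, T4 and T8 lay below all T0 arrays on this probe. Its difference from T0 at these times, in order, was -0.61, -0.47, -0.31 and -0.41, each ± 0.09 (SE; adjusted p = 1.17e-05, 0.000283, 0.0107 and 0.00109). The probe A_42_P489761 (chr10:72677048-72677107, rn4) read 7.41, 7.76, 7.51 and 7.77 at T0 and 7.42, 7.68, 7.35 and 7.65 at T1, and these overlap. Its difference was -0.09 ± 0.22 at T1 and 0.20 ± 0.22 at T8 (adjusted p = 0.804 and 0.517). At T2 replicate 2 and T8 replicate 2 it read 8.80 and 8.33, above its other arrays. Averaged, Acaca differed from T0 by -0.35 ± 0.14 at T1 (adjusted p = 0.0491) and by -0.16, -0.16 and -0.10 at T2, T4 and T8, which did not pass. The averaged call at T1 was lost without any single T1 array and in 22 of the 28 fits that each left out 1 array.

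**Figure D2:**
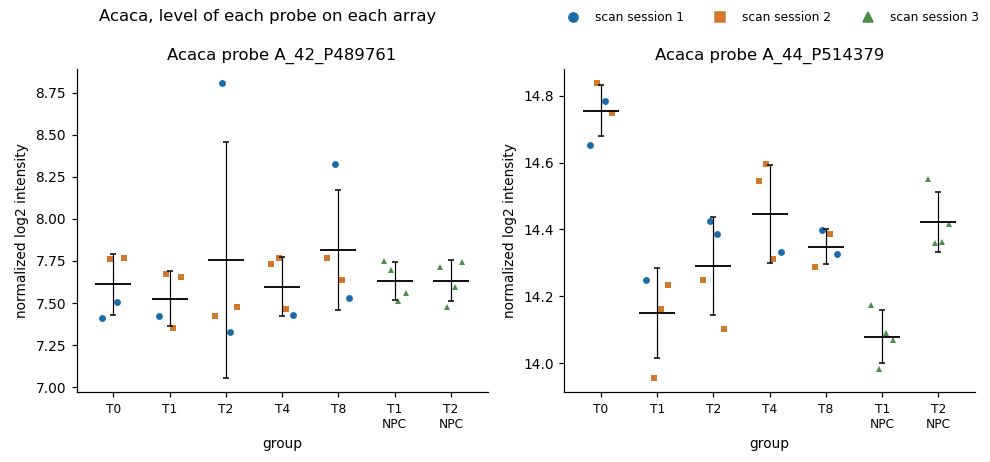
Normalized log2 intensity (vertical axis) of the 2 Acaca probes on each of the 28 arrays by group, with scan session as colour and shape, the mean as a line and the SD as a bar. The probe at right lies lower in all injured time-course arrays than at T0, and the probe at left does not.

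Fasn, which makes palmitate, fell and stayed low. Its level was 14.77, 15.15, 14.88 and 15.12 at T0. It was 13.67, 13.91, 13.93 and 13.92 at T1, and 14.05, 14.04, 13.96 and 14.02 at T2. The T4 replicates read 14.25, 14.28, 14.12 and 13.78, and at T8 it was 14.08, 13.93, 13.93 and 13.97. Every T0 array lay above every injured array, while the T1 arrays also lay below all T2 and all T8 arrays, by little. The difference from T0 was -1.12 ± 0.13 (SE) at T1, 2.18-fold lower (adjusted p = 3.53e-07), and -0.96 ± 0.13 at T2 (adjusted p = 3.7e-06). It was -0.87 ± 0.13 at T4 (adjusted p = 1.61e-05) and at T8 Fasn was 2-fold lower (95% interval -1.28 to -0.72, adjusted p = 2.26e-06). Both Fasn probes were called lower at all 4 times. Within scan session 1, with 1 T1 array, the difference at T1 was -1.16 and within scan session 2 it was -1.22.

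Elovl6, which elongates palmitate, fell and stayed low as well. The level was 11.83, 11.51, 11.45 and 11.36 at T0. It was 10.31, 9.93, 10.24 and 9.87 at T1 and 10.32, 10.64, 10.35 and 9.88 at T2. The T4 replicates read 9.57, 9.98, 9.84 and 10.36, and at T8 it was 9.40, 10.39, 9.96 and 9.84. No injured array reached the T0 range. Against T0 the difference was -1.45 ± 0.21 (SE) at T1, 2.73-fold lower (adjusted p = 6.68e-06), and -1.64 ± 0.21 at T8, 3.11-fold lower (adjusted p = 1.56e-06). At T2 and T4 it was -1.24 ± 0.21 and -1.60 ± 0.21 (adjusted p = 5.18e-05 and 2.65e-06). Its 2 probes were both called lower at all 4 times, and one of them has a listed genomic span of 4774 bases (chr2:227047594-227052367, rn4), against 60 for the other.

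Scd1, the stearoyl-CoA desaturase that current RefSeq names Scd, had the lowest differences from T0 of the set. Its level was 12.93, 12.42, 13.11 and 12.09 at T0. It was 10.02, 10.40, 9.90 and 9.74 at T1 and 10.11, 10.33, 9.71 and 9.50 at T2. In the T4 replicates it was 9.74, 9.33, 9.43 and 9.97, and at T8 it was 9.40, 10.05, 9.26 and 9.47. The lowest T0 array and the highest injured array were far apart. Against T0 the difference was -2.62 ± 0.22 (SE) at T1, 6.15-fold lower (adjusted p = 1.82e-09), and -2.72 ± 0.22 at T2, 6.61-fold lower (adjusted p = 1.31e-09). It was -3.02 ± 0.22 at T4, 8.1-fold lower (adjusted p = 2.9e-10), and -3.09 ± 0.22 at T8, 8.52-fold lower (adjusted p = 1.75e-10). By the mean of these 4 differences, Scd1 held place 31 from the lowest of 35469 features, and Ugt8, Elovl6 and Fasn held places 781, 1495 and 3483. At T0 the level was higher in scan session 1 than in scan session 2, and within the sessions the difference at T8 was -3.26 and -2.92. A related desaturase that the array names Scd and RefSeq names Scd2, chosen after its values were seen, differed from T0 by -0.85 at T1 and by -0.50 at T8 on the log2 scale, and was called lower at all 4 times.

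Fads2, the delta-6 desaturase, fell early and was then closer to T0. Its level was 7.61, 7.92, 7.79 and 8.31 at T0. It was 6.80, 6.81, 6.82 and 7.13 at T1 and 7.16, 7.46, 7.10 and 6.88 at T2, all below T0. In the T4 replicates it was 7.52, 7.56, 7.69 and 7.23, and at T8 it was 7.52, 7.62, 7.49 and 7.45, where both groups touched the T0 range. The difference from T0 was -1.02 ± 0.17 (SE) at T1, 2.03-fold lower (adjusted p = 2.9e-05), and -0.76 ± 0.17 at T2 (adjusted p = 0.000806). It was -0.41 ± 0.17 at T4 and -0.39 ± 0.17 at T8, and neither passed (adjusted p = 0.0619 and 0.0742). At T4 it passed with scan session as a fixed block (-0.43, adjusted p = 0.0435) and with slide as a random block (-0.42, adjusted p = 0.0496). Within scan session 2 alone Fads2 was lower at all 4 times (-1.20, -1.10, -0.53 and -0.61). Within scan session 1 the difference was -0.90 at T1, with 1 T1 array, and -0.42 at T2, which was not called.

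Fads1, the delta-5 desaturase which lies close to Fads2 on chromosome 1, read differently in the scan sessions. Its level was 11.20, 11.96, 11.11 and 12.28 at T0, where replicates 1 and 3 were scanned in session 1 and replicates 2 and 4 in session 2. It was 10.60, 11.31, 10.83 and 11.59 at T1 and 11.26, 10.98, 10.56 and 11.14 at T2. At T4 it was 11.83, 12.12, 11.79 and 10.79, and at T8 it was 12.21, 11.20, 12.11 and 11.47. In each of the 5 time-course groups, the arrays of session 1 lay below those of session 2. The difference from T0 was -0.55 ± 0.29 (SE) at T1 and -0.65 ± 0.29 at T2, and neither passed (adjusted p = 0.138 and 0.0854). With scan session as a block it was -0.75 ± 0.17 at T1 and -0.65 ± 0.17 at T2, and both passed (adjusted p = 0.000703 and 0.0024). At T4 and T8 no fall was called in either fit.

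Ugt8, the enzyme of galactosylceramide synthesis, stayed low throughout. Its level was 10.66, 10.78, 10.64 and 10.12 at T0. It was 8.76, 8.91, 8.99 and 8.53 at T1 and 9.83, 8.97, 9.06 and 8.77 at T2. At T4 it was 8.87, 8.94, 8.81 and 8.47, and at T8 it was 8.26, 8.58, 8.15 and 8.34. No injured array reached T0, and T2 replicate 1 came closest to it. Against T0 the difference was -1.75 ± 0.32 (SE) at T1, 3.37-fold lower (adjusted p = 9.4e-05), and -1.39 ± 0.32 at T2, 2.63-fold lower (adjusted p = 0.00113). It was -1.78 ± 0.32 at T4 (adjusted p = 0.000102) and -2.22 ± 0.32 at T8, 4.66-fold lower (adjusted p = 6.03e-06). Gal3st1, the next enzyme on the path to sulfatide, was not analysed here.

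**Figure D3:**
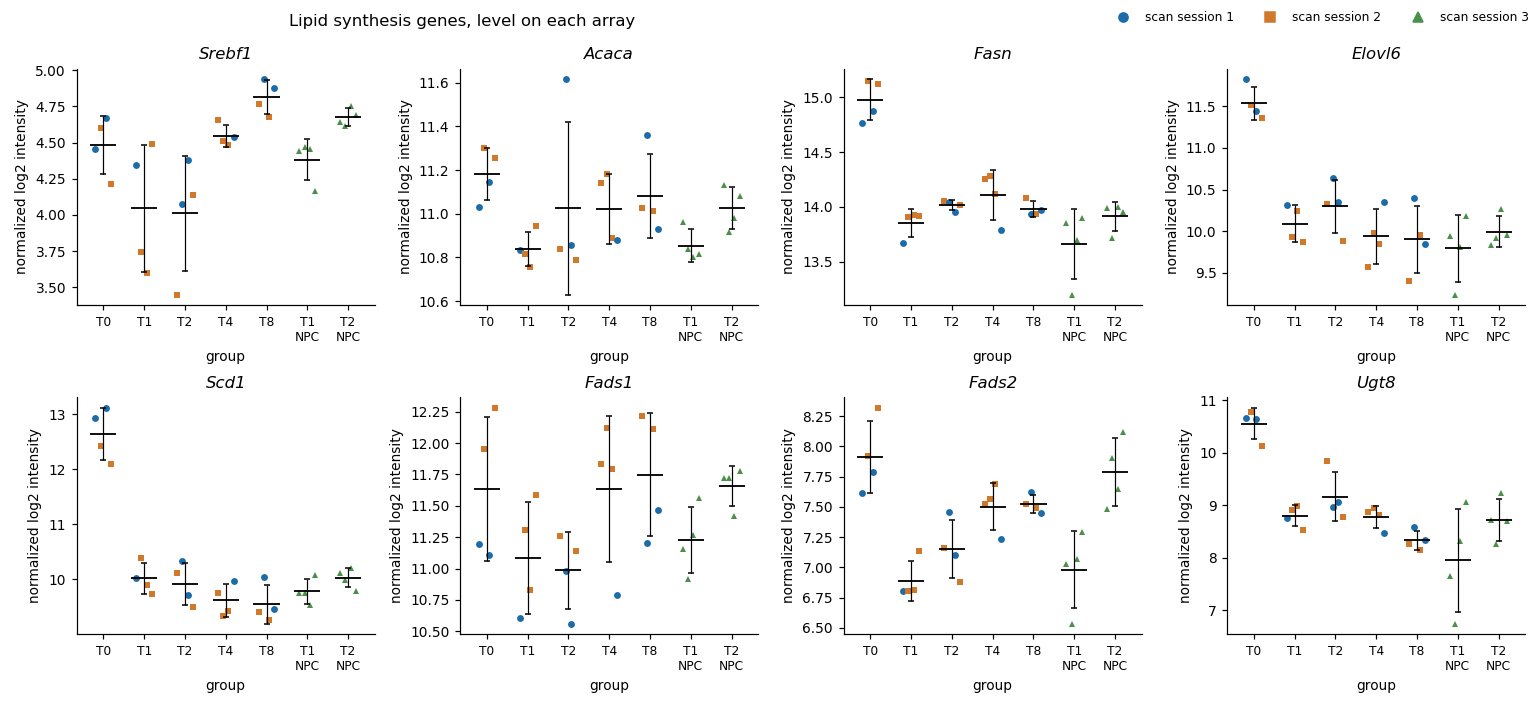
Normalized log2 intensity (vertical axis, scaled for each gene) of the 8 genes on each of the 28 arrays by group, with the mean as a line, the SD as a bar and scan session as colour and shape. All T0 arrays of Fasn, Elovl6, Scd1 and Ugt8 lie above all injured and transplanted arrays, and the Fads1 arrays of session 1 lie low.

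Among injured cords, the question was which genes kept moving after week 1. Between successive times no member was called, and few features were called at all: 1.48% of all features between T1 and T2, 0.0761% between T2 and T4 and 0.0902% between T4 and T8. At an unadjusted p under 0.05, 0 of the 8 genes differed between T1 and T2, 3 between T2 and T4 and 0 between T4 and T8. The share of all features at that threshold is not given here, so these counts cannot be set against the shares above. Over the longer interval from T1 to T8, 2 of 8 genes rose, Fads2 and Srebf1, where 5.45% of all features were called higher. Fads2 was 0.63 ± 0.17 (SE) higher at T8 than at T1, 1.55-fold (adjusted p = 0.016), and the groups did not overlap. Srebf1 was 0.77 ± 0.18 higher, 1.7-fold (adjusted p = 0.00512), and the groups did not overlap either. With normexp these differences were 0.35 for Fads2 and 0.16 for Srebf1, and neither passed (adjusted p = 0.0514 and 0.0713). Within scan session 2 they were 0.59 and 0.77 (adjusted p = 0.0621 and 0.157), and within scan session 1, with 1 T1 array, they were 0.74 and 0.56. With only the groups compared, the Srebf1 call was lost (adjusted p = 0.0655). The Fads2 call was lost without T1 replicate 2 (adjusted p = 0.0508) or T8 replicate 2 (adjusted p = 0.0521). The Fads1 difference of 0.66 ± 0.29 did not pass (adjusted p = 0.187), and with scan session as a block it was 0.86 ± 0.17 and passed (adjusted p = 0.00104). For the genes low at all 4 times, T8 minus T1 was 0.13 ± 0.13 for Fasn, -0.19 ± 0.21 for Elovl6, -0.47 ± 0.22 for Scd1 and -0.47 ± 0.32 for Ugt8, and none passed (adjusted p = 0.688, 0.713, 0.23 and 0.466). With slide as a fixed block Scd1 was lower at T8 than at T1 (-0.63, adjusted p = 0.0353).

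Transplantation was compared with the time-matched injured group, to ask whether these genes differed in cords that received NPCs. Right after injury (T1_NPC against T1) no member was called, where 11.9% of all features were called in either direction. At an unadjusted p under 0.05, 1 of the 8 genes differed, Ugt8, a threshold unlike that of the share of all features. In the T1_NPC replicates Ugt8 read 7.65, 6.74, 8.32 and 9.07, a wider range than in any other group, and it overlapped T1. Its difference was -0.85 ± 0.32 (SE; 95% interval -1.52 to -0.19; adjusted p = 0.0863). Without T1_NPC replicate 4 it was -1.23 (adjusted p = 0.00832), and without replicate 2 it was -0.45 (adjusted p = 0.346). The intervals of the other differences at week 1 were -0.47 to 0.08 for Fasn, -0.27 to 0.31 for Acaca, -0.70 to 0.23 for Scd1 and -0.74 to 0.15 for Elovl6. They were -0.46 to 0.75 for Fads1, -0.26 to 0.44 for Fads2 and -0.03 to 0.70 for Srebf1.

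In T2_NPC against T2, 2 of 8 genes were higher, Fads2 and Srebf1, where 4.62% of all features were called higher. Fads2 read 7.48, 7.90, 7.65 and 8.12 in T2_NPC, all above the T2 arrays. Its difference was 0.64 ± 0.17 (SE; 95% interval 0.29 to 0.99; adjusted p = 0.0197), 1.56-fold. Srebf1 read 4.64, 4.61, 4.75 and 4.69, also all above T2, where 2 arrays were not well above background. Its difference was 0.66 ± 0.18 (95% interval 0.30 to 1.03; adjusted p = 0.0197), 1.58-fold. Neither call held when the fit held only the groups compared (adjusted p = 0.0686 and 0.0743) or with slide as a random block (adjusted p = 0.079 and 0.0517), and with normexp the differences were 0.28 and 0.10 (adjusted p = 0.135 and 0.259). The Fads2 call was lost without T2 replicate 4, T2_NPC replicate 2 or T2_NPC replicate 4 (adjusted p = 0.0567, 0.0618 and 0.073). The Srebf1 call was lost without T2 replicate 1 or T2_NPC replicate 3 (adjusted p = 0.0866 and 0.052). On the undisputed arrays alone the Fads2 difference was 0.51 and was not called, while Srebf1 kept its call. Fads1 read 11.72, 11.72, 11.42 and 11.77, and its difference of 0.67 ± 0.29 did not pass (adjusted p = 0.16). The intervals of the differences were -0.38 to 0.18 for Fasn, -0.34 to 0.58 for Scd1, -0.75 to 0.14 for Elovl6, -1.11 to 0.23 for Ugt8 and -0.29 to 0.29 for Acaca. On the Elovl6 probes taken singly, the differences were 0.07 and -0.69, and neither passed.

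The effect of transplantation was also compared between the later and the earlier schedule. No member differed, where 0.299% of all features did. The smallest adjusted p was 0.386, for Fads2 (0.55 ± 0.24). Fads2 was the only member with an unadjusted p under 0.05 (0.0319), a threshold unlike that of the share. Against T0, 5 of 8 genes were lower in T1_NPC (Fasn, Elovl6, Scd1, Fads2 and Ugt8), where 29.9% of all features were. In T2_NPC 4 of 8 genes were lower (Fasn, Elovl6, Scd1 and Ugt8), where 26.5% of all features were. Scd1 was 7.24-fold lower than T0 in T1_NPC and 6.09-fold lower in T2_NPC. Ugt8 was 6.09-fold lower in T1_NPC and 3.56-fold lower in T2_NPC. Both comparisons use the same T0 arrays as the time course and carry the slide and scan session of the transplanted arrays.

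**Figure D4:**
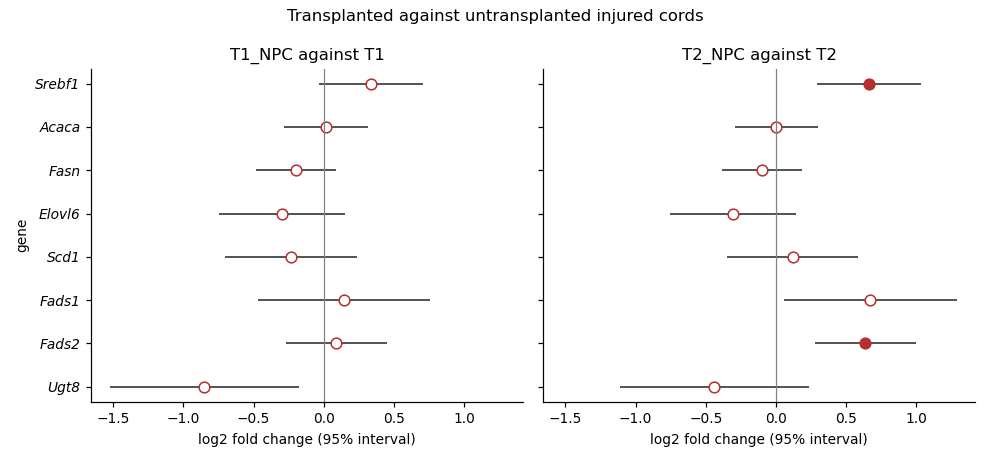
Log2 fold change of transplanted against time-matched injured cords (horizontal axis, bars are 95% intervals) for the 8 genes at week 1 (left) and week 2 (right), with filled points at an adjusted p under 0.05. Fads2 and Srebf1 at week 2 are the filled points, at 0.64 and 0.66.

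The 8 genes did not vary as 1 block. Over the 28 arrays, Scd1 and Elovl6 had a Pearson correlation of 0.90, Fasn and Ugt8 of 0.87, and Elovl6 and Ugt8 of 0.87. Over the 24 injured arrays, which leave out the step from T0, the same values were 0.52, 0.68 and 0.62. Fads1 and Fads2 correlated at 0.66 over all arrays and at 0.65 over the injured ones. Scd1 and Fads1 were at 0.01 over all and at -0.44 over the injured arrays. These are descriptions across arrays that share groups, slides and scan sessions.

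The features most like each gene were looked up among 11594 with a gene symbol and a signal well above background on all arrays. Scd1 was most like Idi1 (Pearson r = 0.96), Mvd (0.95) and Sc4mol, now Msmo1 (0.95), enzymes of cholesterol synthesis, and over the 24 injured arrays these values were 0.50, 0.50 and 0.26. Idi1 differed from T0 by -2.17 at T1 and by -2.65 at T8. Fasn was most like Stmn1, Elovl7 and Gmcl1 (0.93, 0.93 and 0.92), with 0.739, 0.755 and 0.724 over the injured arrays. Ugt8 was most like Gmcl1, Elovl7 and Scrg1 (0.93, 0.93 and 0.92), with 0.813, 0.791 and 0.865 over the injured arrays. Elovl6 was most like Glrb, a glycine receptor subunit (0.94, and 0.748 over the injured arrays). Fads2 was most like Fez1 (0.919, and 0.915 over the injured arrays) and Fads1 like Extl1 (0.896 and 0.887). Acaca and Srebf1 had no close match, with highest values of 0.69 for Tle2 and 0.75 for Peci, now Eci2.

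The neighbouring steps of the pathway were described with lists of other genes. Of 15 genes of fatty acid supply and synthesis, 9, 8, 7 and 8 fell at T1, T2, T4 and T8, and 1, 1, 2 and 2 rose. Their median difference was -0.71, -0.65, -0.31 and -0.37. Of all features, 25.1%, 22.2%, 21.0% and 21.5% fell at these times, and 19.1%, 17.7%, 17.5% and 18.2% rose. Every list and marker count against T0 below is to be read beside these shares. Acss2, which makes acetyl-CoA from acetate, Acsl3, which activates fatty acids, and Acly, which supplies cytosolic acetyl-CoA from citrate, were called lower at all 4 times, with mean differences of -1.54, -1.40 and -1.17. Acsl5 was called higher at all 4 times (mean 0.88). Of 12 measured genes of elongation and desaturation, 8, 8, 7 and 7 fell and 0, 0, 1 and 1 rose. Elovl4, Fads6 and Elovl7 fell most among those called throughout (means -1.75, -1.39 and -1.26).

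Genes that control SREBP and the nuclear receptors of lipid metabolism went both ways. Of 15, 7, 5, 6 and 5 fell and 6, 4, 5 and 6 rose at T1, T2, T4 and T8. Insig1, which holds SREBP in the endoplasmic reticulum and is itself an SREBP target, fell throughout (mean -2.24), as did Srebf2 (-0.90), which encodes SREBP-2. Nr1h3, which encodes the oxysterol receptor LXR alpha, rose throughout (mean 1.77), as did Mlxipl, which encodes ChREBP (1.59). Of 15 genes of sphingolipid and galactolipid synthesis, 4, 4, 3 and 3 fell and 5, 3, 5 and 2 rose. The falls were 26.7%, 26.7%, 20% and 20% of the list, near the shares of all features that fell. The rises were 33.3%, 20%, 33.3% and 13.3%. Fa2h, which hydroxylates the fatty acids of myelin galactolipids, fell throughout (mean -1.81), and Lass6, a ceramide synthase, rose throughout (mean 1.25).

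Of 10 measured genes of lysosomal sphingolipid and galactolipid breakdown, 8, 8, 9 and 9 rose at T1, T2, T4 and T8 and 1, 0, 0 and 0 fell, with a median difference of 1.35, 1.09, 0.98 and 0.84. Hexa, Gm2a and Glb1 rose most (means 2.46, 1.83 and 1.82). Of 10 genes of fatty acid uptake and binding, 5, 6, 6 and 6 rose and 1 fell at each time. Fabp4, a fatty acid binding protein, was not well above background on any T0 array and was at least 141-fold higher at T1 and at least 26.3-fold higher at T8. That bound sets the mean of the injured arrays against the lowest signal called well above background on the T0 arrays. Cd36 and Lpl, which take up fatty acids and release them from lipoproteins, had mean differences of 4.27 and 2.75, with Cd36 well above background on only 2 of the 4 T0 arrays. Of 14 genes of fatty acid oxidation, 4, 4, 5 and 6 rose and 1, 0, 0 and 0 fell, and of 14 genes of glycerolipid and ether lipid synthesis 6, 2, 4 and 4 rose and 4, 4, 5 and 7 fell.

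**Figure D5:**
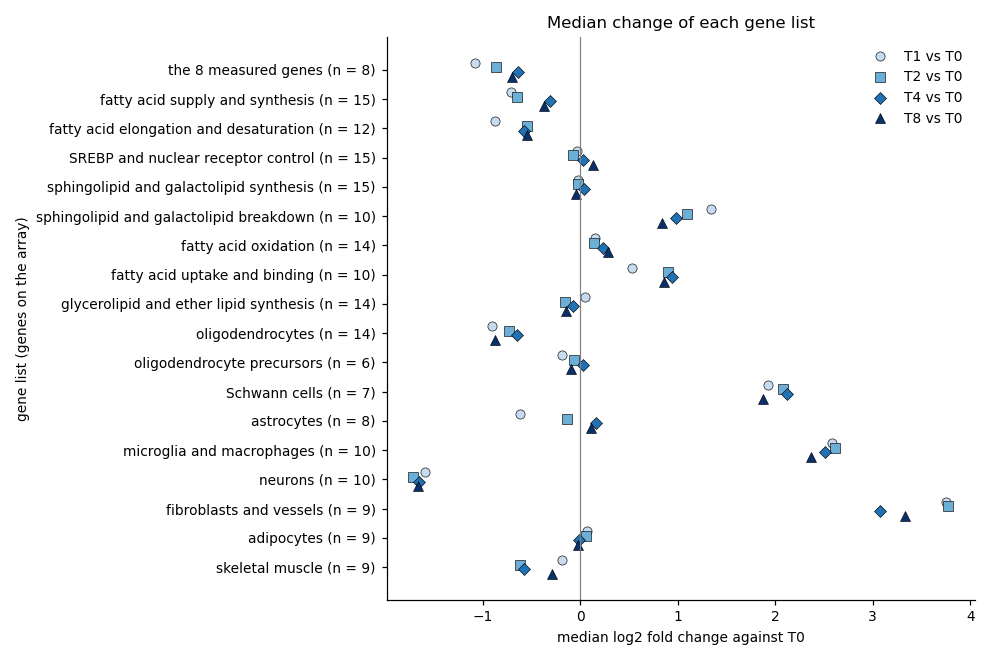
Median log2 fold change against T0 (horizontal axis) of the 8 genes and of each gene list at 1, 2, 4 and 8 weeks after injury, with the number of genes on the array in brackets. The lists of fatty acid synthesis, elongation, oligodendrocytes and neurons lie below 0, and those of sphingolipid breakdown, Schwann cells, macrophages and fibroblasts lie above it.

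Markers of cell types moved with injury too, and their part in the changes of the lipid genes was not tested. Of 14 oligodendrocyte markers, 11, 10, 7 and 10 fell at T1, T2, T4 and T8 and none rose, with a median difference of -0.90, -0.73, -0.65 and -0.87. Their summed level (log2 of the summed intensities) was 18.80 to 19.06 at T0, 18.03 to 18.39 at T1 and 18.02 to 18.23 at T8. Among those called lower at all 4 times, Ermn, Mog and Gpr37 had mean differences of -1.40, -1.35 and -1.22. Of 10 neuronal markers, 9, 10, 10 and 9 fell, and their summed level was 18.39 to 18.75 at T0 and 16.62 to 17.48 at T1. Of 10 markers of microglia and macrophages, all 10 rose at each time, and their summed level was 15.32 to 15.97 at T0 and 18.81 to 19.04 at T1. Of 7 Schwann cell markers, 6, 7, 7 and 7 rose, and Egr2 and Prx had mean differences of 4.24 and 4.15. Their summed level was 12.38 to 12.86 at T0 and 14.82 to 15.40 at T8. Schwann cells form peripheral myelin and also make galactolipids.

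The remaining lists covered other cells of the cord and cells that a dissection could add. Of 9 fibroblast and vessel markers, 8, 6, 5 and 7 rose and none fell. Of 8 astrocyte markers, 4, 2, 1 and 1 fell and 1, 1, 2 and 1 rose, with Gfap called higher at all 4 times (mean 1.42), and of 6 precursor markers of the oligodendrocyte lineage 2, 1, 2 and 2 fell and 2, 1, 3 and 2 rose. Of 9 adipocyte markers, 2, 1, 2 and 2 rose and 1 fell at each time. The rises were 22.2%, 11.1%, 22.2% and 22.2% of the list, near the shares of all features that rose. The defining adipocyte genes Adipoq and Lep were well above background on no array, and Cfd, which macrophages also express, was called higher at all 4 times (mean 4.95). Of 9 skeletal muscle markers, 3, 3, 3 and 2 fell and 2 rose at each time. Tnnc2 and Mylpf were called lower at all 4 times (means -2.57 and -0.90), and Tnnt3 and Acta1 higher (means 1.65 and 1.51). Tnnt3 was well above background on 3 of the 4 T0 arrays. In T2_NPC against T2, 2 of the 14 oligodendrocyte markers were called higher, where 4.62% of all features were. None was called lower, and 12 were not called. The 2 were the myelin genes Mbp (1.43, adjusted p = 0.00182) and Mobp (0.70, adjusted p = 0.0349), named after their values were seen.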

How the data were processed

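Total RNA of 28 rat spinal cord samples was hybridised to 1-colour Agilent arrays. The authors deposited scanner intensities (Agilent Feature Extraction 10.7.1.1 per the labels) and a table of quantile-normalized log2 values, which was used here. Of 45018 spots, 1639 controls were left out, and spots were averaged to 41012 probes and these to 35469 features by gene name. Gene names came from the 8 scanner outputs that carry them. One limma 3.58.1 model (R 4.3.3) of 7 group means was fitted to all 28 arrays, with eBayes and Benjamini-Hochberg adjustment over all features, and called at an adjusted p of 0.05. Intervals are 95% intervals. The fit was tested on simulated data. The members and gene lists were chosen with earlier results of these data known. The genes named from a list were up to 3 in each direction with the largest mean difference among those called the same way at all 4 times, and for likeness the 3 highest correlations.

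The study's methods describe the 4 arrays of a group as biological replicates from separate animals. Equal replicate numbers did not pair samples. Alternatives covered other intensities, scaling, background correction, probe choice, fits, slide and scan session as blocks, and each array left out. Background correction by normexp (offset 50) used the median signals, since not all outputs carry the mean signal. The number of arrays limits the precision.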

Additional observations from a re-analysis of the deposited data

Results flagged for a closer look

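In 56 groups of 4 arrays (8 genes in 7 groups), 5 had 1 array far from the other 3, by a gap over 0.829 of the group's range. By chance about 5% of such groups stand out. Fasn in T1 replicate 1 read 13.67, and the others read 13.91 to 13.93. Acaca in T2 replicate 2 read 11.62, and the others 10.79 to 10.86. Fads1 in T2_NPC replicate 3 read 11.42, and the others 11.72 to 11.77. Fads2 in T1 replicate 4 read 7.13, and the others 6.80 to 6.82. Srebf1 in T1_NPC replicate 4 read 4.17, and the others 4.44 to 4.47.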

How the results depend on the processing

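The calls of Fasn, Scd1, Elovl6 and Ugt8 against T0 held in every fit that left out 1 array. With scanner intensities under their deposited sample names, which conflict with the value table on 16 arrays, 0 members were called in T1, T2, T4 and T8 against T0, in T8 against T1, in T2_NPC against T2 and in the transplanted groups against T0. The difference then turned for Fads2 at T1 (0.0413), Elovl6 at T2 (0.0949) and Ugt8 at T2 (0.22), none called. Matched by rank order, the same intensities kept all 34 calls. That match was made to the value table itself, so it cannot show which sample names are right. Asking for a 2-fold change left 3 members at T2 and 0 in T8 against T1 and in T2_NPC against T2. It also dropped Acaca and Srebf1 at T1 and Fasn at T4 (-0.87) and at T8 (-0.9987, just short of 2-fold). In T1_NPC against T0 it dropped Fads2 (-0.93). For T8 against T1 (2 members called), normexp gave 0, and scan session 2 alone gave 1 (Fads1, with Fads2 and Srebf1 lost). A fit of only these groups gave 1 (Fads2), and slide as a fixed block gave 4. The fit of the 12 undisputed arrays and that of scan session 1 each held 1 T1 array, so no count is given for them. For T2_NPC against T2 (2 called), scaling to the 75th percentile gave 1. Normexp, a fit of only these groups and slide as a random block gave 0. On the undisputed arrays Fads2 was not called (0.51), while Srebf1 kept its call. Leaving out 1 array gave 5 to 7 members at T1 and at T2, 4 to 5 at T4 and at T8, 1 to 2 in T8 against T1, 0 to 1 in T1_NPC against T1, 1 to 2 in T2_NPC against T2 and 9 to 10 in the transplanted groups against T0. That scaling moved the median of all features from -0.10 to -0.27 at T1 against T0. With the replicate number as a block, 6, 5, 4 and 4 members were called at T1, T2, T4 and T8, 2 in T8 against T1 and 2 in T2_NPC against T2. With each group's mean subtracted from its arrays, same-numbered samples of different groups correlated between -0.34 and 0.30. The causes were not tested.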
